A study of Mus musculus with 16 samples.

Results

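Platelets and red cells carry RNA without a nucleus to make it. The transcripts described here are 8 genes typical of those cells, measured in neutrophils sorted from blood, spleen and lung of mice. The 4 platelet genes were Ppbp, Pf4, Itga2b and Alox12, and the 4 erythroid genes were Hbb-bs, Hbb-bt, Hba-a2 and Alas2. They were chosen by name, with earlier results of these data known, and all 8 were found among the 10296 genes listed. All 8 stood highest in blood: in each microbial status every blood library lay above every spleen and every lung library, for each of the 8. Of all tested genes, 13% to 23.9% were arranged so in the single comparisons of an organ with blood. Pf4, Itga2b and Alox12 reached the filter on low values only through blood libraries.

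Platelets inherit their RNA from megakaryocytes, the polyploid cells of bone marrow (and, in mice, of spleen) that shed them. Young red cells, called reticulocytes, keep globin RNA for a short time after the nucleus is lost, and globin is by far their most abundant message. Red cell precursors are made in bone marrow and, in mice, also in the red pulp of the spleen. Neutrophils are not known as producers of haemoglobin or of platelet alpha-granule chemokines in quantity, so such transcripts serve as markers of the other 2 cell types.

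The cells were sorted by flow cytometry as CD45+ CD11b+ Ly6G+ neutrophils, with DAPI staining, from C57BL/6 mice that were either germ-free (GF, without microorganisms) or specific pathogen free (SPF, with a microbiota). Strain and sorted cell type were labelled alike in all 6 groups, and the labels set them apart by tissue and microbial status. There were 2 libraries each from GF blood and SPF blood and 3 each from GF spleen, SPF spleen, GF lung and SPF lung. Ages, sexes, pooling of animals, and any lysis of red cells or perfusion of organs are not given in the sources used here. The labels speak of single mice but do not tie the libraries of a group to separate animals, so a p-value here reflects differences among the libraries at hand, which may be of technical origin. Levels are normalised counts: the deposited value less an offset equal to 0.5 reads. Differences are on the scale of log2(deposited value + 1), which understates changes of low genes, and were tested with limma over all 8299 genes that reached 10 in at least 2 libraries. An adjusted p (Benjamini-Hochberg) under 0.05 is called a pass.

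The libraries held 104213 to 3033941 reads, with medians of 2712907 in blood, 199487 in spleen and 856319 in lung. One blood library, GF blood replicate 3, held only 132798 reads. The worth of a single read ran from 0.392 to 7.62 normalised counts, and a level of 7.62 in the shallowest library is 1 read. The neutrophil surface gene Ly6g was read in all 16 libraries, at 20.3 to 411 normalised counts, and the summed level of the 13 neutrophil identity genes overlapped between the tissues, at 56172 to 102277 in blood, 50785 to 107480 in spleen and 54669 to 84036 in lung, although single genes of that list moved, as counted at the end. The red cell membrane gene Slc4a1 and the platelet gene Gp1bb were looked for, but neither symbol is among the genes listed, so they have no levels here. The summed level of 7 lung structural genes was 15.3 to 51.9 in blood, 7.41 to 35.5 in spleen and 2728 to 10899 in lung. In sorted cells measured in bulk, fewer carried-over cells of a type and less RNA per such cell cannot be told apart.

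Among the 8 genes, the globins carry a limit that their sequences show. Hbb-bs (ENSMUSG00000052305, chr7:103826534-103828096, minus strand) and Hbb-bt (ENSMUSG00000073940, chr7:103812524-103813996, minus strand) are the adult beta-globin genes of this strain, 12537 bases apart. Their coding sequences are 441 bases long and differ at 1 base, an identity of 99.8% (GENCODE M21 transcripts, GRCm38, which is mm10). A stretch of both, coding bases 298 to 417 counted from the start codon, ends at that base, shown in capitals.
Hbb-bs: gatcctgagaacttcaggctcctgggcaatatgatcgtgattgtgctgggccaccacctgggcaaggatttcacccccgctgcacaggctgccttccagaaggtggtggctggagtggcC
Hbb-bt: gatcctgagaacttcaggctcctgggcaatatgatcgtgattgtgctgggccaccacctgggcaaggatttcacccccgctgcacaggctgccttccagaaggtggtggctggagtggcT

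Of the 61-base windows of the Hbb-bs transcript, the length of a read here, 65.1% also occur in the Hbb-bt transcript, and the split of reads between the genes therefore rests on the rest of the message and on the authors' estimation of expected counts. The alpha-globin genes have the same limit. Hba-a2 (ENSMUSG00000069917, chr11:32296489-32297298, plus strand) and Hba-a1 differ at 1 of 426 coding bases, and 84.4% of the windows of Hba-a2 occur in Hba-a1. Levels of single globin genes are uncertain for this reason, and their sum is less so.

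The stretches of genome before the start of some of these genes are shown as a description. The erythroid genes moved together, while the platelet genes shared mainly the step from blood to the organs. Whether shared control of the genes had a part in this was not tested. The sequences are the RefSeq promoter windows on GRCm38.p6, 5′ to 3′ on the gene's strand, without the bases inside the gene body. Capitals mark a match to the letters bound by GATA factors, the regulators of erythroid and megakaryocytic genes. The letters searched were AGATAA with its variant TGATAA, together with the forms that end in G, namely AGATAG and likewise TGATAG, on either strand.
Hbb-bs, chr7:103828097-103828178, minus strand: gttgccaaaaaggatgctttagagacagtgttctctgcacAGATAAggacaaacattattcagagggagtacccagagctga
Hba-a2, chr11:32296242-32296488, plus strand: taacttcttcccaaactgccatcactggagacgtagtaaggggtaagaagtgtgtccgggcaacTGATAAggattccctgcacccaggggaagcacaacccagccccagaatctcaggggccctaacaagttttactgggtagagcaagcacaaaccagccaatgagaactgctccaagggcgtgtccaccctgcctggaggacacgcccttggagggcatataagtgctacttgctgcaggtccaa
Alas2, chrX:150547167-150547374, plus strand: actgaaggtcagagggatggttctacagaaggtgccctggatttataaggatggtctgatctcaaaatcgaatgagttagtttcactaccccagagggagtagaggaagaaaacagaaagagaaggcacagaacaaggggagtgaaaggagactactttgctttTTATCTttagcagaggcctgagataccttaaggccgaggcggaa
Pf4, chr5:90772185-90772434, plus strand: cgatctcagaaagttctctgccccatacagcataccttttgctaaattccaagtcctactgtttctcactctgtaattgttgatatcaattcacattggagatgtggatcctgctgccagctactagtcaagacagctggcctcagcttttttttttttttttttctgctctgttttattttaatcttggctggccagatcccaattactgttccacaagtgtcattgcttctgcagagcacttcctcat

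In the full RefSeq windows of 250 bases, Hbb-bs, Hba-a2 and Alas2 had 1 match each and the other 5 genes had 0. Of 32851 promoters in the table, 26.5% held a match, so the letters are common. A second search was for CCNCNCCC on either strand, the CACCC letters that erythroid Krüppel-like factors bind, which 45.9% of the promoters held. Alas2 had 4 matches, Alox12 had 2, Hbb-bs, Hbb-bt and Itga2b had 1 each, and Ppbp, Pf4 and Hba-a2 had 0. By the gene coordinates given here, some windows run into the gene: the GATA matches lie before the gene, while the 4 CACCC matches of Alas2 and those of Hbb-bs and Itga2b lie inside it. These are matches of letters in a window, not binding sites.

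Ppbp, the precursor of the neutrophil-attracting chemokine CXCL7 of platelet alpha-granules, lies on chromosome 5 (ENSMUSG00000029372, chr5:90768518-90770063, plus strand). Its level was 246 and 230 normalised counts in GF blood and 257 and 160 in SPF blood. In spleen it was 0, 9.87 and 6.01 in GF and 0, 1.49 and 9.40 in SPF libraries, and in lung 8.45, 3.54 and 7.25 in GF and 1.97, 5.83 and 11.5 in SPF libraries. The 4 blood libraries were the high ones and no group from an organ reached them. The log2 difference from blood was -4.97 ± 0.65 (SE, adjusted p 1.2e-06) in GF lung, -4.82 ± 0.65 (1.87e-06) in SPF lung, -5.00 ± 0.65 (2.63e-05) in GF spleen and -5.13 ± 0.65 (1.53e-05) in SPF spleen.

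Pf4, platelet factor 4, the other abundant alpha-granule chemokine, starts 2371 bases after the end of Ppbp (ENSMUSG00000029373, chr5:90772435-90773383, plus strand). It stood at 116 and 74.1 in GF blood and at 109 and 72.9 in SPF blood. The GF spleen libraries gave 5.07, 0 and 0, the SPF spleen libraries 0, 1.49 and 4.70, the GF lung libraries 2.41, 0 and 2.90 and the SPF lung libraries 1.97, 0 and 4.16. Blood again stood apart from both organs. The difference was -5.00 ± 0.71 in GF lung (adjusted p 4.94e-06), -4.78 ± 0.71 in SPF lung (9.52e-06), -4.49 ± 0.71 in GF spleen (0.000281) and -4.18 ± 0.71 in SPF spleen (0.000541).

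Itga2b encodes integrin alpha IIb (CD41), a chain of the fibrinogen receptor that lets platelets aggregate (ENSMUSG00000034664, chr11:102453297-102470122, minus strand). Its blood levels were less even, at 206 and 111 in GF and 47.9 and 61.3 in SPF libraries. None of the 3 GF spleen libraries had a read of it, which makes GF spleen at least 40.7-fold lower than GF blood against a floor of 3 reads over the group. Of the SPF spleen libraries only replicate 2 had reads, at 8.94. Lung libraries all had some, at 6.04, 5.31 and 5.80 in GF and 11.8, 5.83 and 6.25 in SPF. The difference from blood was -4.41 ± 0.60 in GF lung (adjusted p 3.01e-06), -2.58 ± 0.60 in SPF lung (0.00239), -5.62 ± 0.60 in GF spleen (2.07e-06) and -3.32 ± 0.60 in SPF spleen (0.00112).

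Alox12 encodes the platelet-type 12-lipoxygenase, which turns arachidonic acid into 12-HETE (ENSMUSG00000000320, chr11:70241457-70255353, minus strand). It was at 114 and 104 in GF blood and 60.1 and 52.5 in SPF blood. Its reads were absent from the 3 GF spleen libraries, at least 27.9-fold below GF blood against the same floor, and from 2 of the 3 SPF spleen libraries, with 4.70 in replicate 4. Lung held 1.21, 0.885 and 4.35 in GF and 0, 3.50 and 6.25 in SPF libraries. The differences were -5.03 ± 0.70 in GF lung (adjusted p 3.8e-06), -3.75 ± 0.70 in SPF lung (0.000229), -5.14 ± 0.70 in GF spleen (4.4e-05) and -3.82 ± 0.70 in SPF spleen (0.00118).

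**Figure D1:**
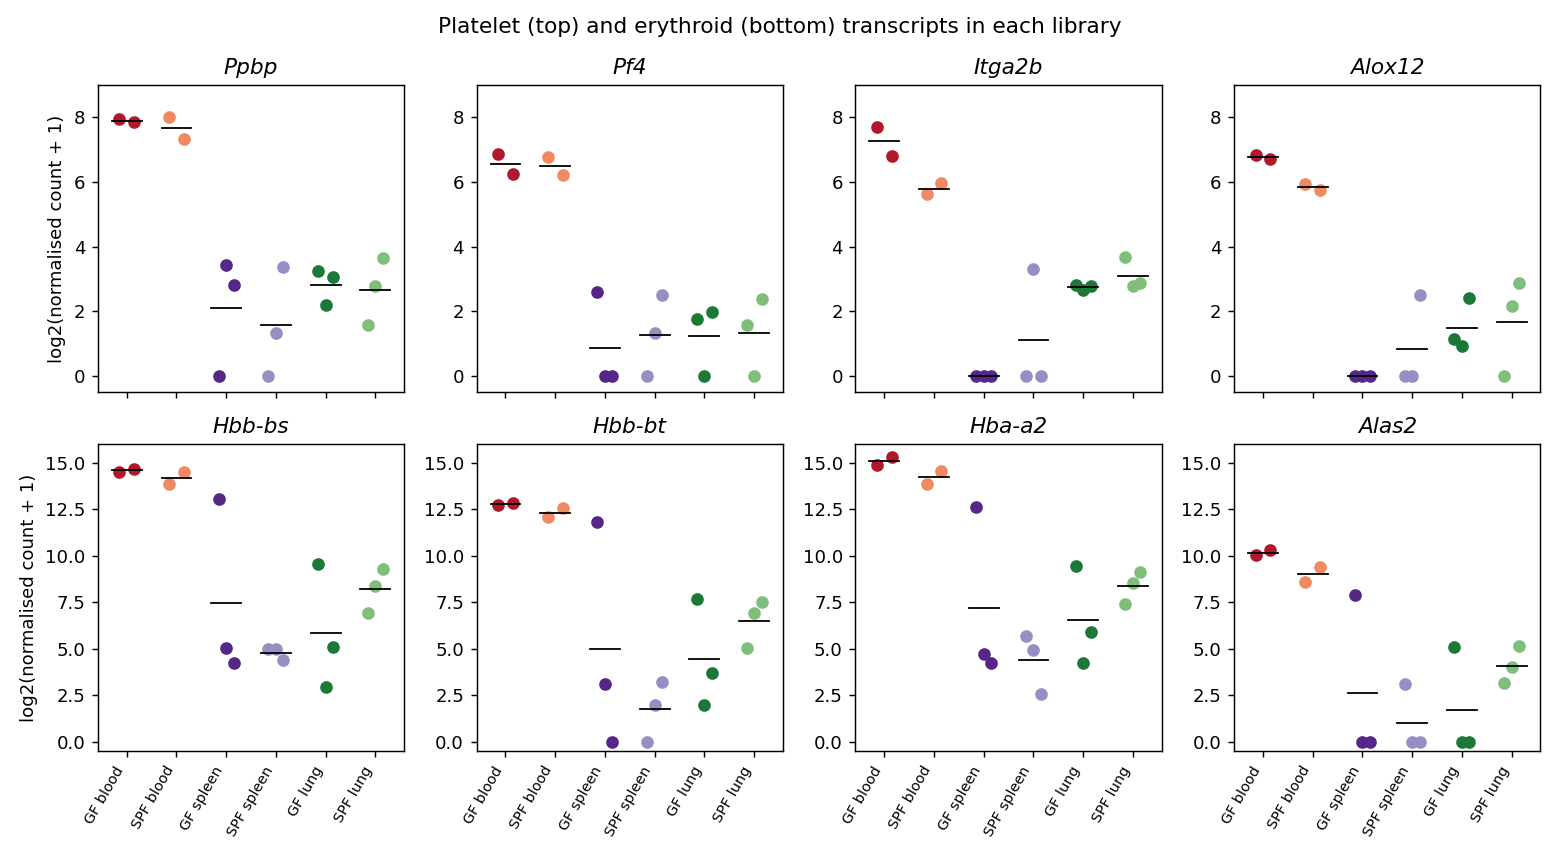
Level of each of the 8 genes in each of the 16 libraries, as log2(normalised count + 1), with platelet genes in the top row and erythroid genes in the bottom row. Points are libraries, short lines are group means on the log2 scale, and the 4 blood libraries lie above all spleen and lung libraries for the platelet genes, while GF spleen replicate 1 lies close to blood for the erythroid genes.

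The 4 platelet genes thus passed as lower than blood in all 4 comparisons of an organ with blood. In the same fit, genes called lower made up 1.96% of all tested genes for lung against blood in GF mice, 6.63% in SPF mice, 0.41% for spleen against blood in GF mice and 4.01% in SPF mice. Pf4, Itga2b and Alox12 reached the filter on low values only through blood libraries, so their count and their values under other settings are given here as a description. The other settings refit the same libraries and are not independent of each other. Under 30 other settings, the 16 platelet differences kept their direction in all 480 values, from -7.25 to -2.15, and 476 of these passed. The 4 that did not were Itga2b in SPF lung with the offset taken off (adjusted p 0.0614), Pf4 and Alox12 in SPF spleen without SPF blood replicate 3 (0.0524 and 0.0689), and Alox12 in SPF spleen with a replicate block (0.082).

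Hbb-bs encodes an adult beta-globin chain of haemoglobin. Its levels in blood were 23530 and 25902 in GF and 14724 and 23269 in SPF libraries. Spleen gave 8476, 31.7 and 18 in GF and 30.5, 31.2 and 19.8 in SPF libraries. Lung gave 767, 6.78 and 32.8 in GF and 122, 330 and 632 in SPF libraries. No organ library reached the lowest blood library, but the lowest blood level was only 1.74 times that of GF spleen replicate 1, while the other 5 spleen libraries were between 18 and 31.7.

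Hbb-bt followed the same libraries. It stood at 6893 and 7443 in GF blood and at 4299 and 6138 in SPF blood, at 3660, 7.80 and 0 in GF spleen, at 0, 3.01 and 8.42 in SPF spleen, at 202, 2.96 and 12.1 in GF lung and at 32.1, 120 and 184 in SPF lung. Hba-a2, an alpha-globin gene, stood at 30209 and 40284 in GF blood, at 15084 and 24585 in SPF blood, at 6297, 25.3 and 18 in GF spleen, at 50.2, 29.9 and 4.94 in SPF spleen, at 697, 18.2 and 58.5 in GF lung and at 171, 365 and 561 in SPF lung. For both, GF spleen replicate 1 and GF lung replicate 2 were the high libraries of their groups.

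Alas2 encodes the erythroid form of 5-aminolevulinate synthase, the first enzyme of haem synthesis, and its gene lies on the X chromosome (ENSMUSG00000025270, chrX:150547375-150570638, plus strand). Its levels were 1074 and 1252 in GF blood and 392 and 684 in SPF blood. In GF spleen it was 233 in replicate 1 and 0 in replicates 3 and 4, in SPF spleen 7.62, 0 and 0, in GF lung 33.8, 0 and 0, and in SPF lung 7.88, 15.1 and 34.4. The spleen and lung libraries with over 100 normalised counts of Hbb-bs all had Alas2, and so did SPF spleen replicate 1, with 1 read and low globin.

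The tests of the erythroid genes were less even than those of the platelet genes. In GF lung Hbb-bs (-8.68 ± 2.41, adjusted p 0.0482), Hba-a2 (-8.54 ± 2.25, 0.038) and Alas2 (-8.03 ± 1.95, 0.0255) passed as lower than blood, and Hbb-bt had a difference of -8.27 ± 2.51 with an adjusted p of 0.0676. In SPF spleen Hbb-bs (-9.27 ± 2.41, 0.0464), Hbb-bt (-9.64 ± 2.51, 0.0467) and Hba-a2 (-9.63 ± 2.25, 0.0314) passed, and Alas2 had -6.96 ± 1.95 with 0.0605. In GF spleen none of the 4 passed, with differences of -7.80 to -6.50 and adjusted p-values of 0.192 to 0.3, nor in SPF lung, with -5.97 to -4.84 and 0.102 to 0.144. All 16 of these limma tests had an unadjusted p under 0.05. The share of all tested genes under that p is not given here, so this count is no finding. Under the 30 other settings the 16 erythroid differences kept their direction, and 130 of 480 values passed. In GF lung the calls ended when only the compared groups were fitted (adjusted p 0.133 for Hbb-bs, 0.0904 for Hba-a2 and 0.0987 for Alas2) and without the libraries under 250000 reads (0.1, 0.054 and 0.0609), and in SPF spleen without those libraries (0.133 for Hbb-bs, 0.0854 for Hbb-bt and 0.0811 for Hba-a2).

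Counted over all 8 genes, 7 passed as lower in GF lung, 7 in SPF spleen, 4 in GF spleen and 4 in SPF lung, beside the shares of all genes given above. The median log2 difference over the 8 was -6.53 in GF lung, -6.06 in GF spleen (-5.92 with Itga2b and Alox12 at their bounds), -4.83 in SPF lung and -6.04 in SPF spleen, against 0.152, 0.036, 0.155 and 0.091 over all tested genes. Without the GF spleen replicate 1 library, all 8 passed in each of the 4 comparisons. That library was singled out by its high erythroid values, so the outcome for the erythroid genes is only a description. Of all genes, 893 passed in that fit for GF lung, 90 for GF spleen, 1727 for SPF lung and 733 for SPF spleen, in either direction. The differences in GF spleen then were -9.82 for Hbb-bs (adjusted p 0.0271), -10.14 for Hbb-bt (0.0135), -10.47 for Hba-a2 (0.00826) and -8.60 for Alas2 (0.019). That library belongs only to the comparison of GF spleen with blood. In the others the differences stayed the same without it, because it enters only through the shared spread and the genes tested. Hbb-bs in SPF lung had -5.97 both ways, with an adjusted p of 0.12 with it and 0.0212 without it. The count for GF lung fell to 4 without GF blood replicate 2 or 3 or GF lung replicate 3 or 4, and that for SPF spleen fell to 2 without SPF blood replicate 3 and to 4 without SPF blood replicate 4 or any SPF spleen library. Genes whose groups did not overlap, lower than blood, made up 14.6% of all tested genes for GF lung, 13% for GF spleen, 23.9% for SPF lung and 23.7% for SPF spleen, where the 8 genes were 8 of 8.

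**Figure D2:**
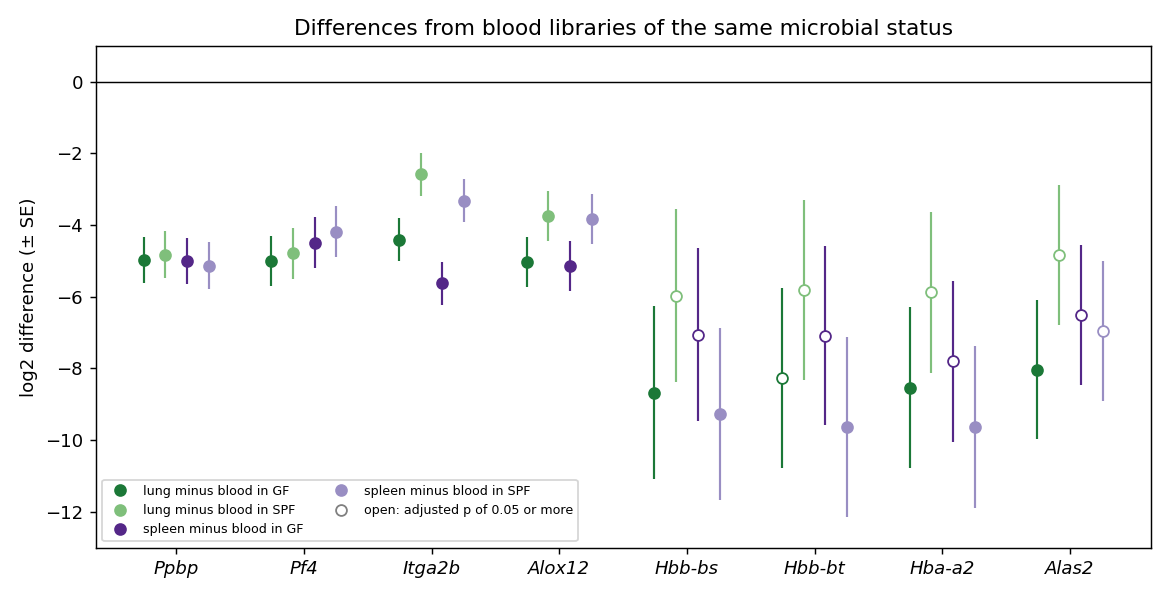
Difference from the blood libraries of the same microbial status, in log2 units, for each of the 8 genes in lung and spleen, with bars of 1 standard error from the model of all 16 libraries. Filled points have an adjusted p under 0.05: the platelet genes are filled in all 4 comparisons, and the erythroid genes have larger differences with longer bars.

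Levels between genes can be compared only per length of transcript. Per kilobase of the longest coding transcript, GF blood held a mean of 63621 normalised counts of Hba-a2, 39357 of Hbb-bs, 10196 of Hbb-bt, 571 of Alas2, 220 of Ppbp, 161 of Pf4, 46.2 of Itga2b and 36.3 of Alox12. The order was the same in SPF blood except that Alox12 (18.8) stood above Itga2b (15.9). The ranges of Ppbp and Pf4 per kilobase overlapped in SPF blood (148 to 238 and 124 to 186), as did those of Hba-a2 and Hbb-bs (27227 to 44378 and 23446 to 37053), while in GF blood neither pair overlapped. Itga2b and Alox12 overlapped in both blood groups, with 13.9 to 17.8 and 17.5 to 20.0 in SPF blood, so their order is not settled.

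As a share of all reads, the 4 haemoglobin genes (Hba-a1 included) took 6.71% (95% Wilson interval 6.67% to 6.74%) and 9.94% (9.78% to 10.1%) in the GF blood libraries and 3.35% and 5.84% in the SPF blood libraries. The share was 2.18% (2.12% to 2.25%) in GF spleen replicate 1, from 4289 reads, and 0.00406% to 0.0125% in the other spleen libraries. Lung lay between 0.00383% and 0.206%. Intervals cover counting error only. The GF blood libraries differed 19.2-fold in depth, while the higher level was 1.07 times the lower for Ppbp, 1.10 times for Hbb-bs and, at most, 1.86 times, for Itga2b.

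GF spleen replicate 1 was high in erythroid genes without being high in platelet genes. It held 1 read of the 4 platelet genes in all, of Pf4. Scaled to its number of Hbb-bs reads, the 4 blood libraries had 24.9 to 53.9 reads of the 4 platelet genes, and 11.5 to 29.2 of Ppbp alone. The same library had the highest levels among the spleen libraries of Car2 (carbonic anhydrase 2, 55.8), Ngp (a secondary granule protein of immature neutrophils, 16566), Ltf (lactoferrin, 11698) and Ly6g (411). These genes were picked after their values were seen. The depth of this 1 library was 196633 reads. Neither the source of its globin reads nor the part of these levels in its erythroid values was tested.

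**Figure D3:**
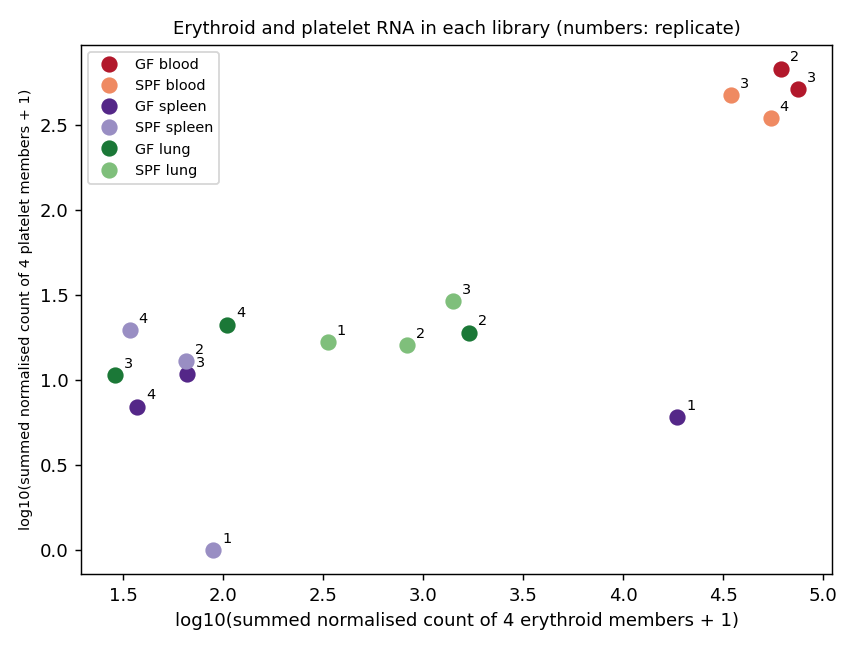
Each point is 1 library, with the summed level of the 4 erythroid genes on the x axis and of the 4 platelet genes on the y axis, both as log10(sum + 1), and with its replicate number. The blood libraries lie at the upper right, GF spleen replicate 1 lies far to the right at the level of platelet genes of the other spleen libraries, and the lung libraries spread along the x axis with little change on the y axis.

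The makeup of the globin reads was examined within libraries, where depth and scaling drop out. Hbb-bt made up 22.7%, 22.3%, 22.6% and 20.9% of Hbb-bt plus Hbb-bs reads in GF blood replicates 2 and 3 and SPF blood replicates 3 and 4. In GF spleen replicate 1 the share was 30.2% (95% Wilson interval 28.4% to 32.0%), above the interval of every blood library. In lung it was 20.9% (18.2% to 23.9%) in GF replicate 2 and 20.9%, 26.7% and 22.5% in the SPF libraries. These intervals leave out the error of allotting reads between genes that share most of their sequence, so whether the split of beta-globins differed in this 1 library was not tested. SPF lung replicate 2, at 22.5% to 31.3%, overlapped the highest blood intervals only at its lower end.

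Alas2 against Hbb-bs gave a difference between the blood groups. Alas2 was 4.36% (4.19% to 4.54%) and 4.61% (3.98% to 5.34%) of Alas2 plus Hbb-bs reads in GF blood, against 2.59% (2.43% to 2.77%) and 2.86% (2.73% to 2.99%) in SPF blood. The GF libraries lay above the SPF libraries, and their counting intervals did not meet. With 2 libraries a group, an exact two-sided permutation test cannot give a p below 0.333, and no other test of these shares was run. The share was 2.68% (2.01% to 3.55%) in GF spleen replicate 1, 4.22% (2.94% to 6.04%) in GF lung replicate 2 and 6.09%, 4.40% and 5.15% in the SPF lung libraries.

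**Figure D4:**
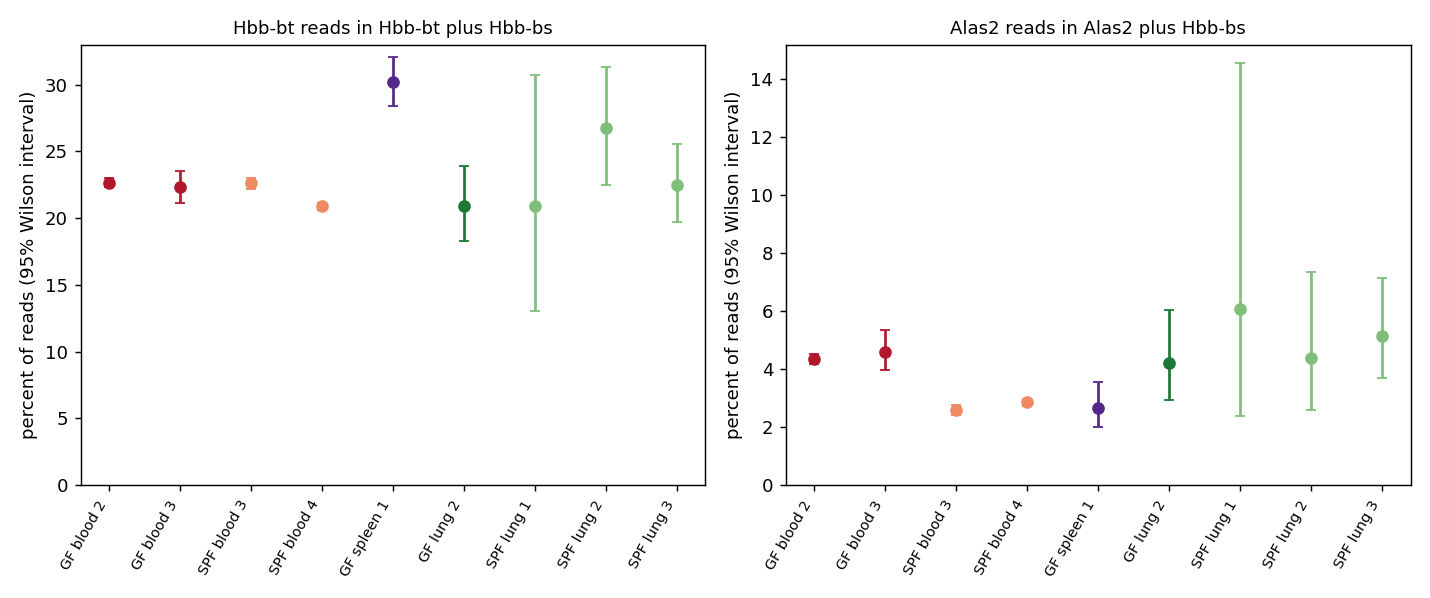
Share of Hbb-bt in Hbb-bt plus Hbb-bs reads (left) and of Alas2 in Alas2 plus Hbb-bs reads (right), in percent, for the libraries with 61.7 or more Hbb-bs reads. Bars are 95% Wilson intervals for counting error only. GF spleen replicate 1 is highest on the left at 30.2%, and on the right the GF blood libraries (4.36% and 4.61%) lie above the SPF blood libraries (2.59% and 2.86%).

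Ppbp against Hbb-bs set platelet against red cell RNA. Ppbp was 1.03%, 0.879%, 1.72% and 0.684% of Ppbp plus Hbb-bs reads in the 4 blood libraries in the order above. In SPF lung it was 1.59%, 1.74% and 1.78%, and 1.09% in GF lung replicate 2, from 1 to 11 Ppbp reads. In GF lung replicates 3 and 4, which had few globin reads, it was 34.3% (13.8% to 60.9%) and 18.1% (7.88% to 35.6%). Globin and platelet genes therefore did not keep 1 ratio over the lung libraries.

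Spleen and lung were then set against each other. None of the 8 genes passed between lung and spleen in limma, in GF or in SPF mice, while 10.2% and 9.66% of all tested genes did. At an unadjusted p under 0.05 there was 1 in GF mice and 0 in SPF mice. The GF gene was Itga2b, read in all 3 lung libraries and in 0 of 3 spleen libraries, with a difference of 1.21 ± 0.54 (adjusted p 0.178). Platelet genes in SPF mice differed by -0.61 to 0.74. In SPF mice the erythroid genes were higher in lung in every library: 3.30 ± 2.16 for Hbb-bs, 3.83 ± 2.25 for Hbb-bt, 3.76 ± 2.01 for Hba-a2 and 2.12 ± 1.74 for Alas2, with adjusted p-values of 0.34 to 0.571. All 4 had groups that did not overlap, as had 18.2% of all tested genes with lung higher. In GF mice this held for Itga2b and Alox12, against 21.2% of all tested genes. Both had 0 reads in GF spleen, where a floor of 3 reads over the group is 3.90 normalised counts. Itga2b in GF lung was at least 1.46-fold higher than that floor, and the mean of Alox12 in GF lung, 2.15, lay below it, so for Alox12 no difference was detectable at this depth. When limma was fitted to the SPF lung and spleen libraries alone, where 5 of the 8 genes were tested, Hbb-bs (adjusted p 0.00234), Hbb-bt (0.00134) and Hba-a2 (0.0172) passed. In that fit 614 genes passed in all. With precision weights (voom), chosen after seeing the data, 0 passed in either status.

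GF blood was compared with SPF blood for the effect of the microbiota. None of the 8 passed in limma, against 1.33% of all tested genes, and 1 had an unadjusted p under 0.05. That was Itga2b, at 206 and 111 against 47.9 and 61.3, a difference of 1.48 ± 0.66 (p 0.0324, adjusted p 0.253). The point estimates of all 8 were above 0, from 0.08 for Pf4 to 1.48, with a median of 0.67 against 0.023 over all tested genes. The sign turned under some settings: with a replicate block for Hbb-bs (-0.82), Hbb-bt (-0.53) and Hba-a2 (-0.39), without SPF blood replicate 4 for Ppbp (-0.10) and Pf4 (-0.20), and without GF blood replicate 2 for Pf4 (-0.20). For 6 of them (all but Ppbp and Pf4) both GF libraries lay above both SPF libraries, an arrangement that 18.7% of all tested genes had. Fitted to the blood libraries alone, Itga2b (adjusted p 0.0126) and Alas2 (0.0189) passed, and 360 genes passed in all, against 110 in the model of 16 libraries. With precision weights Itga2b (0.000204) and Alox12 (0.033) passed, among 780 genes in all.

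The GF blood libraries differed strongly in depth, so the differences within platelet genes were also read from shares. Itga2b was 45.6% (42.5% to 48.8%) and 32.6% (20.9% to 47.0%) of Itga2b plus Ppbp reads in GF blood and 15.7% (13.1% to 18.6%) and 27.7% (24.1% to 31.4%) in SPF blood. The GF libraries were higher, and the interval of the shallow GF library met that of SPF replicate 4.

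In spleen and in lung 0 of the 8 genes passed between GF and SPF mice in limma, with 0 at an unadjusted p under 0.05, and 0 with precision weights. The groups overlapped for all 8 genes in both organs. Among all tested genes 0.325% passed in spleen and 0.0241% in lung. Erythroid differences were 1.62 to 3.03 in spleen, where GF replicate 1 was the high library, and -2.30 to -1.81 in lung, where the SPF libraries were mostly higher, and platelet differences were -0.81 to 0.37 and -0.34 to 0.08.

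Whether the step from blood to an organ differed between GF and SPF mice was tested as an interaction. None of the 8 genes passed in limma in any of the 3 interactions, and none with precision weights, where 0.012%, 0.759% and 0.012% of all tested genes passed for lung against blood, spleen against blood and lung against spleen. Itga2b had an unadjusted p under 0.05 in the first 2, with -1.83 ± 0.85 (p 0.0405, adjusted p 0.646) and -2.30 ± 0.85 (p 0.0115, adjusted p 0.203). The point estimates of its fall from blood were larger in GF mice, and GF spleen had 0 reads. The other 7 genes had none.

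The genes most like Ppbp and Hbb-bs over the 16 libraries were listed by Pearson's r of log2(value + 1), as a description over libraries that share their tissue. For Ppbp, members aside, they were Gp9, a chain of the von Willebrand factor receptor (r = 0.906), Myl9, a myosin light chain (0.894), Clec1b, the podoplanin receptor CLEC-2 (0.892), Treml1, of platelet alpha-granules (0.887), and Pls1 (0.867). Over the 12 libraries without blood, the same r values were 0.0134, 0.413, 0.382, 0.0564 and 0.369, so the likeness to Ppbp lay mostly in the step from blood to the organs. For Hbb-bs they included Hba-a1 (0.983), Bpgm, the red cell enzyme that makes 2,3-bisphosphoglycerate (0.950), Ube2l6 (0.928) and Tubb1, the platelet beta-tubulin (0.885). Without blood these kept r values of 0.949, 0.878, 0.801 and 0.760. For Tubb1 that value rests on 1 read over all spleen libraries and 14 over all lung libraries, so it is no finding.

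Among the 8 genes themselves, Hbb-bs went with Hbb-bt (r = 0.991 over 16 libraries, 0.977 without blood), Hba-a2 (0.990 and 0.970) and Alas2 (0.979 and 0.942). Ppbp went with Alox12 (0.958 and 0.573), Pf4 (0.915 and 0.0708) and Itga2b (0.845 and -0.407). Between Ppbp and Hbb-bs r was 0.759 over all libraries and -0.12 without blood. In spleen and lung the platelet genes rest on 0 to 11 reads each per library, so weak correlations there are no finding.

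Other platelet genes were taken from a list of 19 genes largely restricted to megakaryocytes and platelets, of which 12 were in the file and 11 were tested, the 4 members included. In GF mice 10 of 11 were lower than blood in lung (median -4.41) and 9 in spleen (median -3.95), and in SPF mice 8 in lung (median -3.00) and 7 in spleen (median -2.54), with 0 higher in any. Genes called lower were 1.96%, 0.41%, 6.63% and 4.01% of all tested genes in these comparisons, in the same order. Of the 11, 8 passed the filter through blood libraries only. Gp9 was at 63.3 ± 5.71 (mean ± SD) in GF blood, 0.886 ± 0.777 in GF lung and 2.002 ± 3.47 in GF spleen, with a lung difference of -4.82 ± 0.68 (SE, adjusted p 4.85e-06). Tubb1 was at 65.9 ± 30.4 in GF blood, 16.5 ± 1.64 in SPF blood and 2.09 ± 2.48 in GF lung, a difference of -4.42 ± 0.73 (5.44e-05). Clec1b fell by 3.83 ± 0.74 in GF lung (0.000444).

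Not all genes of that list followed the members. Itgb3, the integrin beta-3 partner of Itga2b, which many cells express, was at 62.0 ± 27.5 in GF blood, 20.5 ± 13.1 in SPF blood, 21.7 ± 9.96 in GF lung and 23.2 ± 8.45 in SPF lung, and did not pass in any of the 4 comparisons. P2ry12, the ADP receptor of platelets, was at 51.8 ± 10.4 in GF blood and at 16.4 ± 2.78 in GF lung, and passed only there (-1.61 ± 0.50, adjusted p 0.035). The difference between the changes of Itga2b and of its partner was not tested.

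A second list held 25 genes that platelets share with endothelium, macrophages or other cells, of which 22 were in the file and 21 were tested. In lung 5 were higher and 2 lower than blood in GF mice (median -0.13) and 6 higher and 3 lower in SPF mice (median -0.35), where genes called higher were 7.83% and 12.5% of all tested genes and genes called lower 1.96% and 6.63%. In spleen 0 were higher and 4 lower in GF mice (median -0.52), and 1 higher and 4 lower in SPF mice (median -0.32; -0.41 when genes without reads in 1 group are set to their bound), against 0.47% and 3.05% of all tested genes called higher and 0.41% and 4.01% called lower. Sparc, a matrix protein found in platelets and abundant in stromal and endothelial cells, was at 303 ± 109 in SPF lung and at 0 reads in both SPF blood libraries (adjusted p 1.82e-11), at least 481-fold higher against a floor of 3 reads over the blood libraries. Cd36 was at 270 ± 65.0 in SPF lung and 2.41 ± 2.13 in SPF blood (6.33 ± 0.57, 1.7e-09). Plek, pleckstrin, which leukocytes also express, was higher in SPF lung (2.0 ± 0.22, 4.88e-08). Clu, clusterin, was at 114 ± 39.3 in SPF blood and 1.49 ± 2.58 in SPF spleen (-4.60 ± 0.49, 1.44e-06). The lung structural genes rose in the same libraries as Sparc and Cd36, all 7 in both statuses, and their part in these values was not tested.

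Of 36 erythroid genes 18 were in the file and 16 were tested. Against blood, 6 were lower and 1 higher in GF lung (median -1.09), 2 lower and 0 higher in GF spleen (median -1.40), 4 lower and 3 higher in SPF lung (median -0.94), and 8 lower and 0 higher in SPF spleen (median -2.10; -2.42 with bounds used in the same way). Of all tested genes, 1.96%, 0.41%, 6.63% and 4.01% were called lower in these comparisons and 7.83%, 0.47%, 12.5% and 3.05% higher, so the higher calls in lung lay near the share of all genes. Of the 16, 2 passed the filter through blood libraries only. Bpgm was at 322 ± 78.3 in GF blood, 221 ± 48.9 in SPF blood, 3.06 ± 2.65 in SPF spleen and 8.24 ± 4.58 in GF lung, with -5.14 ± 0.83 in SPF spleen (adjusted p 0.00108). Mkrn1, a ubiquitin ligase of erythroid cells that other cells express too, was at 674 ± 158 in GF blood and still at 285 ± 52.1 in GF lung (-1.24 ± 0.23, 0.000312). Aqp1, the water channel of red cells and of endothelium, went the other way, with 1.43 ± 0.747 in SPF blood, 109 ± 57.4 in SPF lung and 0 reads in the 6 spleen libraries (5.29 ± 0.65 in SPF lung, 3.98e-07).

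**Figure D5:**
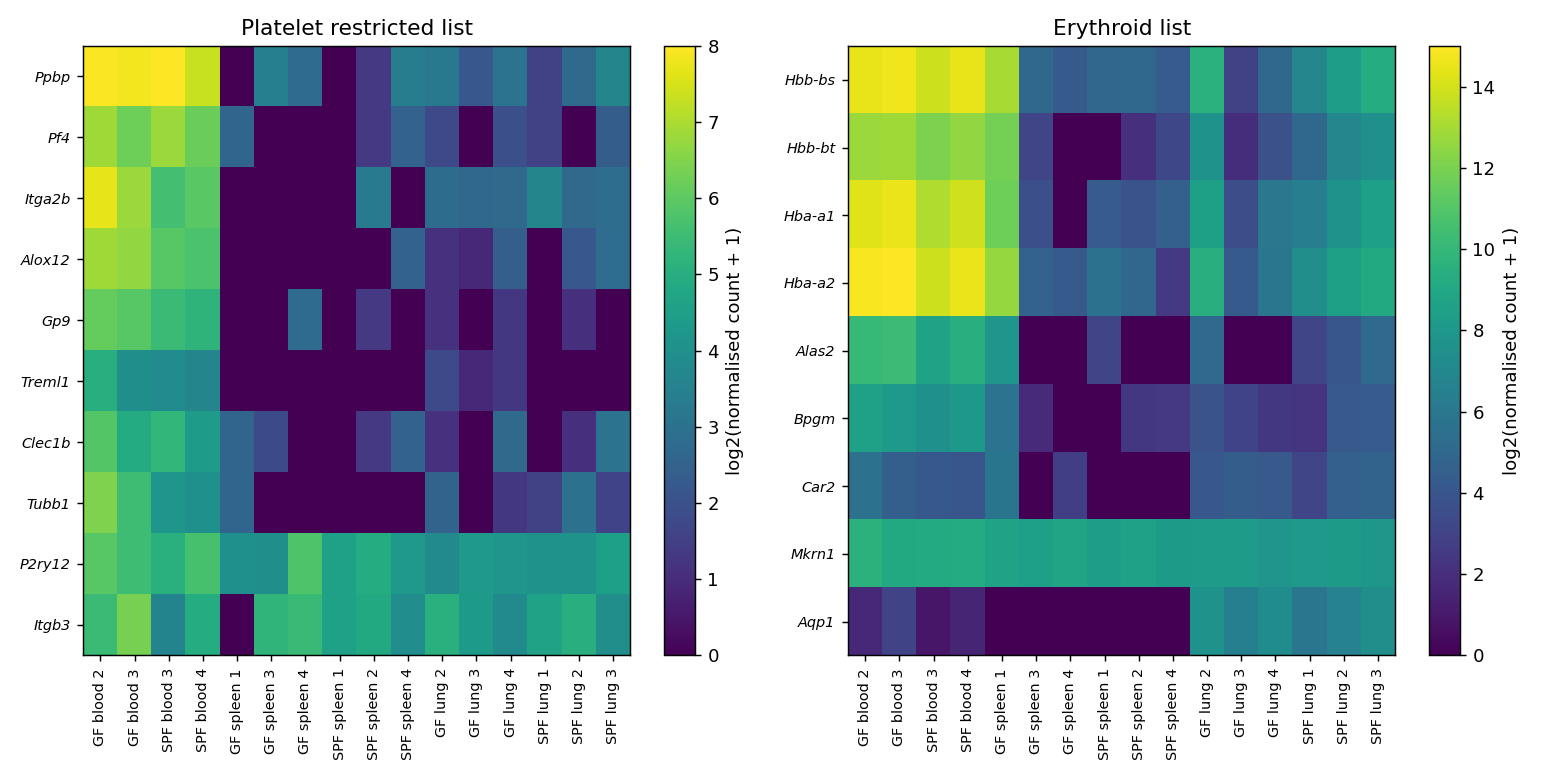
Levels in the 16 libraries of the genes of the platelet restricted list (left) and the erythroid list (right) that the text names, coloured by log2(normalised count + 1), each panel with its own scale. Columns are libraries and rows are genes: the 4 blood columns are bright for most platelet genes and for the globins, Alas2 and Bpgm, GF spleen replicate 1 is bright for the globins, and Mkrn1 is a similar mid-range shade in all 16 columns.

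Alas2 heads the pathway of haem synthesis, for which 12 genes of the pathway and of mitochondrial iron supply were listed, with 11 in the file and 10 tested. Against blood 3 were lower in GF lung, 1 in GF spleen, 0 in SPF lung and 1 in SPF spleen, and 1 was higher, in SPF lung, with medians of -0.20, -0.25, -0.73 and -0.34 (with bounds, -0.12 in GF spleen and -0.52 in SPF spleen). The shares of all genes called lower and higher are those given for the erythroid list, and 1 of 10 higher in SPF lung is below the 12.5% of all genes. Fech, ferrochelatase, the last enzyme of the pathway, was at 191 ± 2.27 in GF blood, 90.6 ± 34.2 in SPF blood and 37.2 in GF spleen, where replicates ranged from 19.7 to 55.8 (-2.38 ± 0.40, adjusted p 0.000719). Slc25a37, mitoferrin-1, was at 68.4 ± 8.07 in GF blood and 19.8 ± 7.12 in GF lung (-1.79 ± 0.52, 0.0229). Alad, which makes porphobilinogen, was the gene higher in SPF lung, at 5.64 ± 2.35 against 0 reads in SPF blood (adjusted p 0.00602), at least 8.96-fold higher against the same kind of floor. Alas2, Fech and Slc25a37 were the 3 lower in GF lung, and the other 7 did not pass there.

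Lists of other cell types also held genes that passed. The neutrophil identity genes, with 14 entries tested for the 13 genes, had 7 lower and 1 higher in lung than in spleen in GF mice and 8 lower and 1 higher in SPF mice. Of all tested genes, 10.2% and 9.66% passed there in either direction. Against blood, 2 were lower and 1 higher in GF lung, 0 lower and 1 higher in GF spleen, 5 lower and 3 higher in SPF lung and 2 lower and 6 higher in SPF spleen. In the same order, 1.96%, 0.41%, 6.63% and 4.01% of all tested genes were called lower than blood. Genes called higher were 7.83%, 0.47%, 12.5% and 3.05%, and these shares also stand beside the 2 lists that follow. Of 9 tested genes of red pulp macrophages, which clear old red cells, 2 were higher in GF lung, 1 in GF spleen, 4 in SPF lung and 5 in SPF spleen, with 1 lower in lung of either status. Of 5 tested B cell genes, 1 was higher in GF lung, 4 in SPF lung and 1 in SPF spleen. The summed level of the macrophage list was 2503 to 4649 in blood, 2998 to 3834 in spleen and 2520 to 3517 in lung, and that of the B cell list was 464 to 679, 431 to 731 and 454 to 652, so both overlapped between tissues. The part of these cells in the values of the 8 genes was not tested.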

How the data were processed

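Ly6G+ neutrophils were sorted and their RNA amplified and sequenced in 16 libraries, per the labels' protocols. CASAVA, RSEM 1.3.1, limma and mm10 are named in the submitters' processing notes. The aligner, annotation version, filter and scaling are not given in the sources used here. The deposited signal is given without a unit. Within a library the smallest value is the worth of 0.5 reads, so this offset was subtracted for levels, and levels divided by the worth of 1 read gave reads. Of values under 10 reads, 91.4% to 98.7% per library lay within 0.05 of a whole read, so reads are expected counts and no count model was fitted.

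Group means were fitted in limma 3.58.1 (R 4.3.3) on log2(value + 1) in 1 model of 16 libraries, with a trended, robust prior and two-sided tests, for 12 comparisons. Of 10296 genes, 8299 reached 10 in at least 2 libraries. The fit was tested on simulated data. The members and lists were chosen with earlier results of these data known. Named were the 8 members, up to 4 further genes per list with the smallest p among those passing against blood, and 5 genes most correlated with Ppbp and with Hbb-bs. Itgb3, P2ry12 and the genes of GF spleen replicate 1 were named after their values were seen. Annotation was GENCODE M21. Of the alternatives, 29 were planned and 1, precision weights, was added. Some genes that this rule names are not reported here.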

Additional observations from a re-analysis of the deposited data

How the results depend on the processing

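Results here are the numbers of the 8 genes that passed, and in parentheses the number under the model of all 16 libraries. Lung against blood in GF mice (7) fell to 4 when only the compared groups were fitted and to 4 without the libraries under 250000 reads, and ranged from 4 to 8 as single libraries were left out: 4 without GF blood replicate 2, GF blood replicate 3, GF lung replicate 3 or GF lung replicate 4. Spleen against blood in GF mice (4) ranged from 4 to 8, with 8 without GF spleen replicate 1, the library that stood out in the erythroid genes. Lung against blood in SPF mice (4) was 8 with array weights, with only the compared groups and with precision weights, and ranged from 4 to 8, with 8 without GF spleen replicate 1. That library lies outside this comparison and enters it only through the shared spread and the genes tested. Spleen against blood in SPF mice (7) was 4 with quantile normalization and 4 without the libraries under 250000 reads. It ranged from 2 to 8 as single libraries were left out: 2 without SPF blood replicate 3, 4 without SPF blood replicate 4 or any of the 3 SPF spleen libraries. Lung against spleen was 1 in GF mice (0) with the offset taken off, where 919 genes passed in all. It was 3 of 5 tested in SPF mice (0) with only the compared groups, where 614 genes passed in all. GF against SPF blood (0) was 2 with only the compared groups, where 360 genes passed in all, and 2 with precision weights, where 780 did. The interaction of status with spleen against blood (0) was 1 without the libraries under 250000 reads. Leaving out single libraries gave 0 to 0 for these and for the remaining comparisons. The erythroid differences from blood kept their direction in all 480 values, from -10.58 to -4.40, and 130 passed. With single libraries left out, GF minus SPF in blood ran from -0.10 (without SPF blood replicate 4) to 0.58 for Ppbp, and from -0.20 (without GF blood replicate 2, or SPF blood replicate 4) to 0.37 for Pf4. Quantile normalization moved the median of all tested genes for lung against blood from 0.152 to -0.14 in GF and from 0.155 to -0.13 in SPF mice. Otherwise the causes were not tested.

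With the replicate number as a block, 3 of the 8 passed for spleen against blood in SPF mice, and GF minus SPF in blood turned to -0.82 for Hbb-bs, -0.53 for Hbb-bt and -0.39 for Hba-a2. Over 9 pairs of the same number the correlation of deviations from group means was -0.128 to 0.068. Of 16 libraries, 2 correlated best with one of their own number. Deviations in groups this small must cancel, and several libraries are shallow, so these values cannot decide whether the numbers pair the libraries. The planned count test was not run, because the share of low values that were whole reads, 91.4% at the lowest, was too small. Depth limits the platelet genes in spleen and lung, where a level rests on few reads, and the 2 libraries per blood group limit every comparison with blood.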
